A study of Homo sapiens with 3 samples.

Results

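Interferon-stimulated genes were followed in A375, an established BRAF-mutant human melanoma cell line, after 24 h in serum-free DMEM (control), in the secretome of young adipocytes (YA-A375) or in that of old adipocytes (OA-A375). The group held 46 genes, taken by symbol from a list of interferon-inducible genes, out of 58037 genes in the count table, and every symbol was found. The rule did not use their values, but the members were chosen with earlier results of these data known. The secretomes were serum-free DMEM conditioned by adipocytes that had been differentiated in culture from donor preadipocytes, whereas the control medium had not been conditioned by cells, so control differed from both secretomes in more than adipocyte age. Each group was 1 library of poly(A) RNA, so no difference below has a replicate check, no p-value was computed, and every comparison is between libraries and not between conditions. The sample labels give the exposure as a range with a longer upper end, while the series description and the methods give 24 h. How many donors stood behind each secretome library is not given in the sources used here.

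Interferon-stimulated genes are the effector arm of the antiviral response. Type I interferons bind the IFNAR1 and IFNAR2 receptor, whose kinases JAK1 and TYK2 activate STAT2, and this joins IRF9 in the complex ISGF3, which binds the interferon-stimulated response element (ISRE). Signaling from interferon-gamma acts mainly through a different element, GAS, and IRF1 can drive many of the same genes without interferon. In melanoma, as in other tumours, these genes are read as a sign of interferon exposure, of nucleic acid sensing within the cell, or of tonic signaling.

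In OA-A375, 20 of the 39 genes with enough reads were at least 1.2-fold higher than in control (51.3%), beside 21.1% of all genes. In YA-A375 about as many were higher as lower. The oligoadenylate synthetases of the OAS family, the RNA sensors, the interferon regulatory factors IRF1, IRF2 and IRF7, the IFI44 pair, the SAMD9 pair and TRIM22 were higher in OA, whereas GBP2, ISG20, CMPK2, IFIT2 and BST2 were lower. Common readouts of interferon differed among themselves in OA. IFI44L was 2.66-fold, and ISG15 was 1.38-fold with a counting interval that began at no difference. IFIT1 lay within 1.2-fold (0.797 to 1.33) and MX1 just short of 1.2-fold (0.94 to 1.53), with intervals that reach beyond it. In a second list of 39 other interferon-stimulated genes, 25% of those with enough reads were higher in OA than in control, near the share of all genes. No interferon gene had enough reads to pass the expression filter.

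The totals of control, YA and OA were 21448195, 21306558 and 18089008 counts, and they were scaled by size factors of 1.06, 1.06 and 0.891. Folds are ratios of these normalised counts with a 95% Clopper-Pearson interval. The interval covers counting error only, since 1 library per group gives no spread between cultures. Reads and not single molecules were counted. A gene was called higher or lower from 1.2-fold, the cutoff of the study read as a linear fold, among the 14413 genes whose normalised counts averaged 20 or more over the 3 libraries. Of the 46 interferon-stimulated genes, 39 passed this filter, with a median mean normalised count of 287 beside 484 for all genes that passed. OASL and TRIM22 lay under 20 in control and passed through their level in OA. Since reads came from a whole culture, fewer cells that express a gene and less RNA per cell cannot be told apart.

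The ISRE and GAS elements were searched in RefSeq promoter windows on GRCh38.p14, from 250 bases before to 50 after each start, on both strands, as the ISRE core GAAANNGAAA and the GAS core TTCNNNGAA. A window was given for 35 of the 46 genes. The ISRE core was present in 24 of them (68.6%), beside 4.38% of all 27305 genes with a window, and the GAS core in 10 (28.6%), beside 9.38%. In 6 windows of these genes an ISRE and a GAS core overlapped. A match describes the letters of the window and is neither a measured binding site nor a cause of any value here.

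The stretches below show the ISRE core in genes that were higher, lower or within 1.2-fold in OA against control, and the GAS core in IRF1. The cores are in capitals, and the stretches are read 5′ to 3′ along the strand of transcription. Those of ISG15 (chr1:1013364-1013419), IFIT1 (chr10:89392487-89392549), OAS3 (chr12:112938311-112938360), IFI44L (chr1:78620355-78620404) and ISG20 (chr15:88638937-88638966) lie on the plus strand. Those of IFIH1 (chr2:162318808-162318863), SAMD9 (chr7:93118086-93118135), BST2 (chr19:17405738-17405767), IFITM3 (chr11:320886-320912) and IRF1 (chr5:132490879-132490907) lie on the minus strand. Every stretch falls upstream of the RefSeq start. In GENCODE 29, those of ISG20 and IFITM3 also fall within an exon of a longer transcript of the same gene, that of BST2 within exons of BISPR and MVB12A, 24 bases of that of IFIH1 within an exon of GCA, 23, 9 and 4 bases of those of IFI44L, OAS3 and IFIT1 within exons of the same genes, and those of ISG15, SAMD9 and IRF1 in no exon. IRF1 is shown for its GAS core and all others for the ISRE core. TTTC in capitals is the core read from the other strand.
ISG15: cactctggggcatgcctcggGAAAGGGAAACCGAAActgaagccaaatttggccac
IFIT1: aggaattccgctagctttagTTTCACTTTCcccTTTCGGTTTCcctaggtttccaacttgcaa
OAS3: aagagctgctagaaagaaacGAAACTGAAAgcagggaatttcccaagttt
IFIH1: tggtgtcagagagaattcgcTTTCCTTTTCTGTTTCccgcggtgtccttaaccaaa
IFI44L: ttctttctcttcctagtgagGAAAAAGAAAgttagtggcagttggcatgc
SAMD9: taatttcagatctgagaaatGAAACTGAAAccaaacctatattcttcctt
ISG20: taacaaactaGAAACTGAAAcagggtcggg
BST2: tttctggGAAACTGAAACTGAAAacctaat
IFITM3: GAAAAGGAAActgttgaGAAACCGAAA
IRF1: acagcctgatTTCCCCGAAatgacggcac

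**Figure D1:**
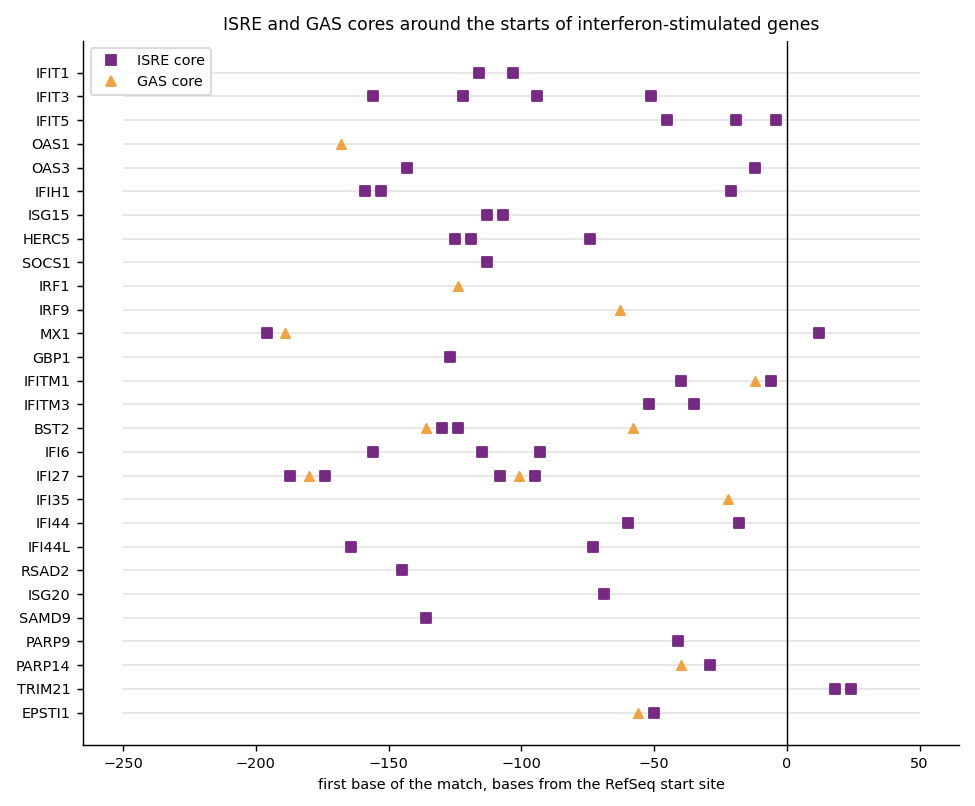
Position of each ISRE core (squares) and GAS core (triangles) within the promoter windows of interferon-stimulated genes, as the first base of the match in bases from the RefSeq start (vertical line). The 28 genes with a match are shown, and windows of genes with several starts (IFI27, IFI44, IFIT3 and MX1) are laid over each other. Most matches fall before the start, and those of TRIM21 and 1 of MX1 fall after it.

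In OA-A375 against control, 20 of the 39 genes were at least 1.2-fold higher (51.3%), beside 21.1% of all genes tested, and 6 were lower (15.4%), beside 21.5%. Their median log2 fold change was 0.29, beside 0.01 over all genes. With the counting interval wholly beyond 1.2-fold, 12 were higher and 3 lower, beside 9.04% and 9.08% of all genes. Kept without a filter, 21 of the 46 were higher, beside 25.9%, 12 were lower, beside 33.8%, and the median was 0.13.

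In YA-A375 against control, 7 of the 39 genes were higher, beside 17.4% of all genes tested, and 8 were lower, beside 16.4%. By the stricter rule 2 were higher (5.13%) and 4 lower (10.3%), beside 6.03% and 4.44%. The median log2 fold change was -0.05, beside -0.02 over all genes. At 1.2-fold the shares lay near those of the background, whereas by the stricter rule the share lower lay above it, on 4 genes.

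Between the secretomes, 17 of the 39 genes were higher in OA than in YA (43.6%), beside 21.5% of all genes, and 2 were lower, beside 23%. By the stricter rule 8 were higher and 2 lower, beside 9.03% and 10%. The median was 0.22, beside 0.01. The 3 comparisons share libraries, so they are not independent of each other. OA was the highest of the 3 libraries for 25 of the 39 genes (64.1%), beside 38.5% of all genes tested, and YA for 2, beside 29.8%.

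**Figure D2:**
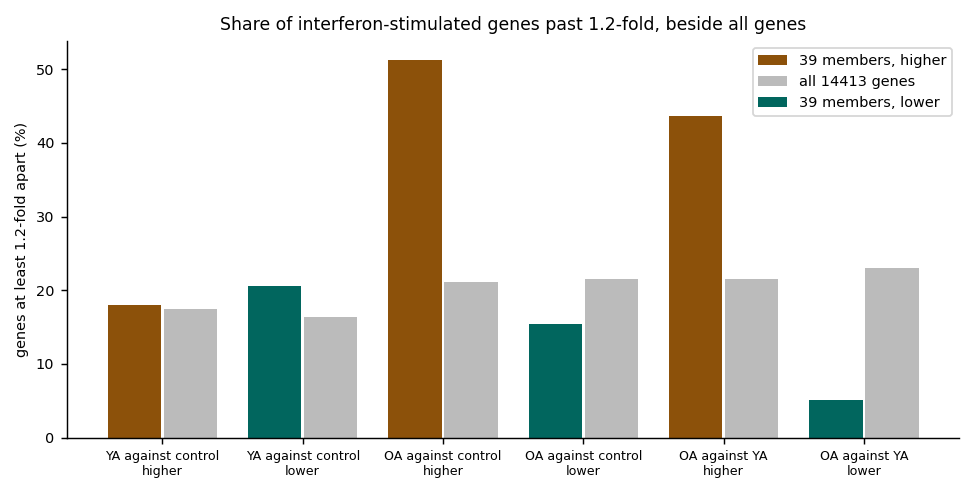
Percent of genes at least 1.2-fold higher (brown) or lower (green) among the 39 interferon-stimulated genes past the filter, beside all 14413 genes tested (grey), in each comparison. The brown bars stand well above grey in OA against control (51.3% beside 21.1%) and OA against YA (43.6% beside 21.5%), whereas both bars lie near grey in YA against control.

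Summed over the 46 genes, control held 25748 counts, YA 23748 and OA 21616, or 1200.5, 1115 and 1195 CPM, that is, counts scaled to the library total. The sums of control and OA were thus close. Among the abundant genes, IFITM3, ISG20, MX2, PARP14 and STAT2 had fewer normalised counts in OA than in control, whereas OAS3 and SAMD9 had more. Per kilobase of exon, IFITM3 had the highest level in every library, at 2513 normalised counts per kb in control, then 2294 in YA and 2018 in OA. The next levels in control were those of IFITM2 (467), IFI6 (390.0), IFI35 (362) and ISG20 (287). OASL, IFI44L and TRIM22 were the lowest of the 39 in control, between 1.72 and 3.22 normalised counts per kb, and they had the highest folds in OA.

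**Figure D3:**
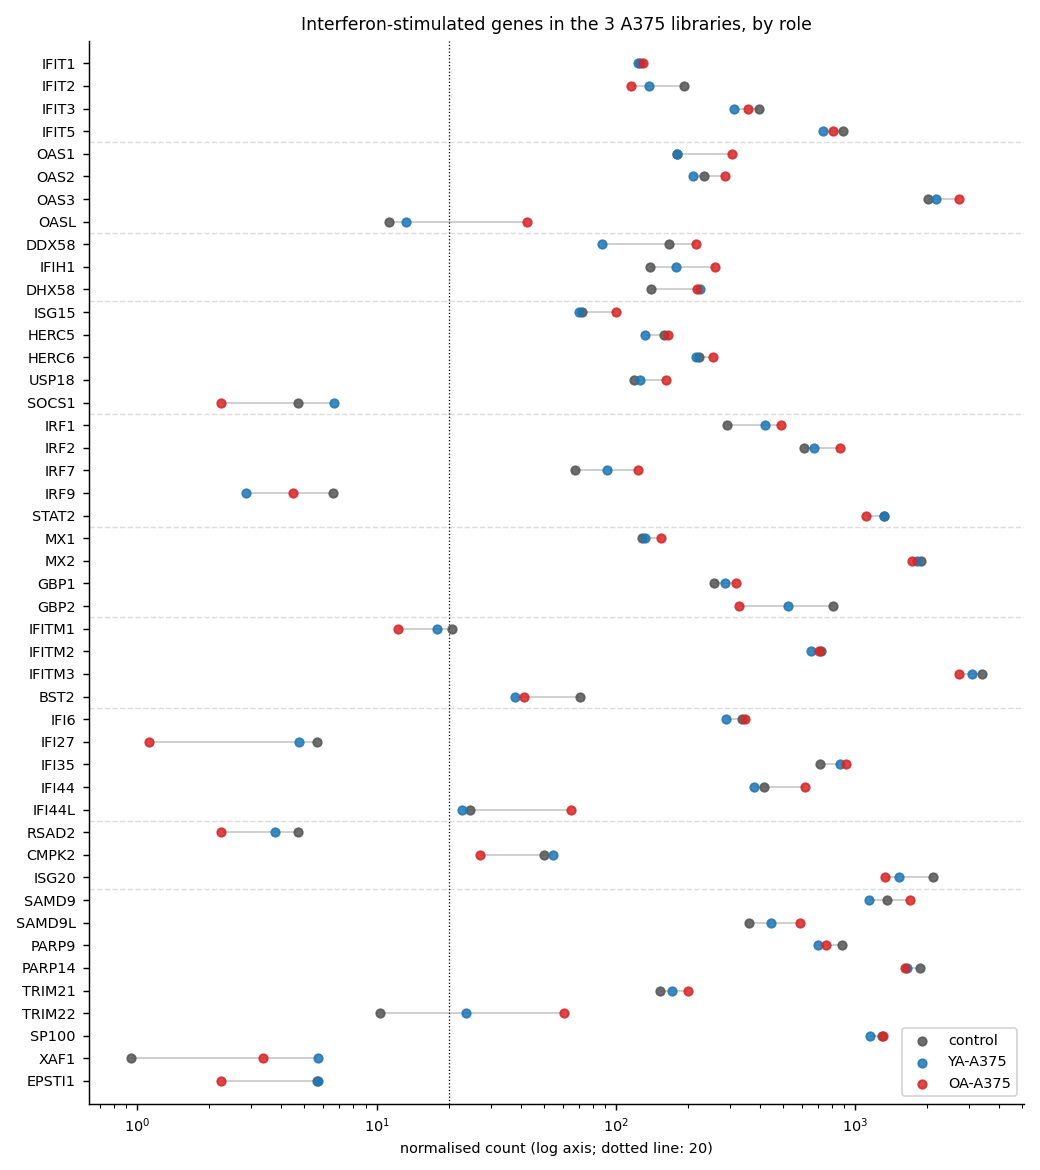
Normalised count (log axis) of each of the 46 genes in control (grey), YA-A375 (blue) and OA-A375 (red), ordered by role, with dashed lines between roles. The dotted line marks 20, the minimum mean for a gene to be tested, and the 7 genes whose points average under 20 were not tested. OASL, with its control and YA points left of the line, passed through its level in OA.

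The OAS family makes oligoadenylates in response to viral RNA, which activate RNase L, while OASL lacks that activity and acts on RNA sensing. All 4 genes were higher in OA than in control, beside 21.1% of all genes, and higher in OA than in YA, beside 21.5%. None passed 1.2-fold in YA against control, beside 17.4% of all genes higher and 16.4% lower. OAS1 (chromosome 12, 112906777 to 112933222) had 191, 191 and 272 counts in control, YA and OA, which was 1.70-fold in OA against control (1.40 to 2.05). OAS3, its neighbour 5130 bases on, had 2148, 2297 and 2413 counts, 1.34-fold in OA (1.26 to 1.42). OASL, on another part of chromosome 12, had 12, 14 and 38 counts, 3.77-fold (1.93 to 7.93). OAS2 was 1.22-fold (1.02 to 1.47). In each of the 4, control and YA lay close together and OA stood above both.

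The 3 cytosolic RNA sensors were all higher in OA, beside 21.1% of all genes, but they parted in YA. IFIH1, which encodes MDA5, a sensor of long viral RNA, had 147, 188 and 232 counts in control, YA and OA, 1.28-fold in YA (1.03 to 1.60) and 1.88-fold in OA (1.52 to 2.33). DHX58, which encodes LGP2, a regulator of the other sensors, had 149, 238 and 195 counts, and was as high in YA, at 1.60-fold (1.30 to 1.98), as in OA, at 1.56-fold (1.25 to 1.94). DDX58, which encodes RIG-I, a sensor of RNA ends, had 177, 93 and 193 counts. It was 0.527-fold in YA (0.406 to 0.681) and 1.30-fold in OA (1.05 to 1.60), so that OA exceeded YA 2.46-fold (1.91 to 3.19). DDX58 was the only one of the 39 genes lower in YA and higher in OA by the threshold (2.56%, beside 2.67% of all genes tested), a share near that of all genes.

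Among the 4 transcription factors past the filter, IRF1, IRF2 and IRF7 were higher in OA, beside 21.1% of all genes, and the ISGF3 subunit STAT2 was not. IRF1, an activator that can drive these genes by itself, had 309, 443 and 438 counts in control, YA and OA, 1.44-fold in YA (1.24 to 1.67) and 1.69-fold in OA (1.46 to 1.96). In the annotation 22% of its exon bases are overlapped by antisense genes, whose reads could not be told apart if strand was not used in counting. IRF2, a relative that competes with IRF1, had 651, 715 and 769 counts, 1.41-fold in OA (1.27 to 1.56). IRF7, the factor that amplifies interferon production, had 72, 97 and 110 counts, 1.35-fold in YA (0.986 to 1.86) and 1.82-fold in OA (1.34 to 2.48). Their levels rank control, YA, OA in the same order, with the step from YA to OA smaller than 1.2-fold for IRF1. STAT2 had 1400, 1394 and 986 counts, 0.999-fold in YA (0.927 to 1.08) and 0.839-fold in OA (0.773 to 0.911), inside the threshold.

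IRF9, the DNA-binding subunit of ISGF3, had 7, 3 and 4 counts and was not tested. Its exon bases are overlapped to 48.4% by AL136295.5 on the same strand. The effect of this overlap on its count was not tested. SOCS1, an inhibitor of the receptor kinases, had 5, 7 and 2 counts.

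In the ISG15 pathway, in which a small ubiquitin-like protein is attached to others, folds in OA were modest and no interval lay wholly beyond 1.2-fold. ISG15 itself had 77, 74 and 89 counts in control, YA and OA, 1.38-fold in OA (1.00 to 1.89). USP18, which removes ISG15 and dampens receptor signaling, was 1.37-fold (1.07 to 1.75). HERC5, the main ligase for ISG15, was 1.04-fold (0.830 to 1.31), and its neighbour HERC6 1.15-fold (0.951 to 1.38). The intervals of HERC5 and HERC6 held both no difference and folds above 1.2, so their counts could not tell these apart.

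The IFIT genes encode proteins that bind foreign RNA and stop its translation, and the 4 genes lie in 1 cluster on chromosome 10. None was higher in any comparison, beside 17.4% of all genes in YA, 21.1% in OA and 21.5% in OA against YA. IFIT1 had 134, 131 and 116 counts, 0.981-fold in YA (0.765 to 1.26) and 1.03-fold in OA (0.797 to 1.33), and was among the 3 genes with the smallest changes of the 39, with MX2 and IFITM2. IFIT2 had 204, 146 and 103 counts, 0.718-fold in YA (0.576 to 0.892) and 0.601-fold in OA (0.470 to 0.766). IFIT3 and IFIT5 were lower in YA, at 0.786-fold (0.678 to 0.910) and 0.824-fold (0.748 to 0.907), and inside the threshold in OA. IFIT1, IFIT3 and IFIT5, which carry ISRE cores in their windows, thus all lay within 1.2-fold in OA, and IFIT2, for which no window was given, lay below.

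The MX and GBP genes encode large GTPases that trap viruses or attack vacuoles of microbes. MX1 had 136, 140 and 137 counts, just short of 1.2-fold in OA (0.94 to 1.53). MX2 had 2004, 1922 and 1540 counts, 0.962-fold in YA (0.903 to 1.02) and 0.915-fold in OA (0.856 to 0.979). GBP2 (chromosome 1, 89106132 to 89150456) had 862, 556 and 292 counts, the lowest fold of the 39 genes in OA. It was 0.647-fold in YA (0.580 to 0.721) and 0.404-fold in OA (0.352 to 0.461), and OA was also below YA, at 0.624-fold (0.539 to 0.720). GBP1, 40772 bases away, was 1.11-fold in YA (0.936 to 1.31) and 1.23-fold in OA (1.04 to 1.46), so the 2 neighbours lay on opposite sides in OA.

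Of the membrane proteins, IFITM3, which keeps viruses from fusing in endosomes, had 3595, 3272 and 2423 counts in control, YA and OA, 0.913-fold (0.870 to 0.957) and 0.803-fold (0.762 to 0.846). In the annotation an antisense gene overlaps 21.3% of its exon bases. IFITM2 had 765, 692 and 627 counts, 0.976-fold in OA (0.877 to 1.09). IFITM1 had 22, 19 and 11 counts and missed the filter, and its exons share bases with those of IFITM2, so these near-identical genes are uncertain. BST2, the tetherin that holds budding virus at the cell surface, had 75, 40 and 37 counts. It was 0.535-fold in YA (0.355 to 0.795) and 0.588-fold in OA (0.385 to 0.882), so both secretome libraries lay below control and close to each other.

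The small IFI proteins included the adjacent genes IFI44L and IFI44, 3651 bases apart on chromosome 1, and both were higher in OA than in either other library. IFI44L, a common member of interferon signatures, had 26, 24 and 58 counts in control, YA and OA, 2.66-fold in OA (1.65 to 4.40). IFI44 had 441, 399 and 551 counts, 1.49-fold (1.31 to 1.69) against control and 1.64-fold (1.44 to 1.87) against YA. IFI35, which with NMI forms a cytosolic complex, was 1.22-fold in YA (1.1 to 1.34) and 1.29-fold in OA (1.16 to 1.42), and IFI6, a mitochondrial protein, was 1.03-fold in OA (0.88 to 1.2). IFI27, one of the most inducible genes in blood, had 6, 5 and 1 counts.

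Of 3 enzymes of nucleotides and RNA, 2 passed the filter, and both were lower in OA, beside 21.5% of all genes. CMPK2, a mitochondrial nucleotide kinase, had 53, 58 and 24 counts in control, YA and OA, 0.539-fold in OA against control (0.318 to 0.889) and 0.491-fold against YA (0.292 to 0.803). RSAD2, which encodes viperin and lies head to head with CMPK2, had 5, 4 and 2 counts and was not tested. ISG20, an exonuclease of RNA, had 2240, 1622 and 1188 counts, 0.726-fold in YA (0.681 to 0.775) and 0.632-fold in OA (0.588 to 0.678). Its level stepped down from control to YA to OA.

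SAMD9 and SAMD9L, adjacent genes on chromosome 7 that restrict poxviruses and growth, were both higher in OA. SAMD9 had 1438, 1208 and 1514 counts, 0.843-fold in YA (0.780 to 0.910), 1.25-fold in OA (1.17 to 1.35) and 1.49-fold in OA against YA (1.38 to 1.61). SAMD9L had 382, 472 and 526 counts, 1.24-fold in YA (1.08 to 1.42) and 1.64-fold in OA (1.44 to 1.88). TRIM22, an antiviral ubiquitin ligase, had 11, 25 and 54 counts, the highest fold of the 39 genes in OA, at 5.85 (3.02 to 12.4), and in YA, at 2.28 (1.08 to 5.13). These folds rest on few reads in control. TRIM21, an antibody receptor in the cytosol, was 1.31-fold in OA (1.05 to 1.63).

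PARP9 was lower in YA (0.79-fold, 0.716 to 0.870), whereas PARP14 and the nuclear body protein SP100 stayed within 1.2-fold in every comparison. XAF1, a proapoptotic gene, had 1, 6 and 3 counts and EPSTI1 had 6, 6 and 2. The 7 genes that were not tested were thus SOCS1, IRF9, IFITM1, IFI27, RSAD2, XAF1 and EPSTI1, and each had 22 counts or fewer in every library.

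**Figure D4:**
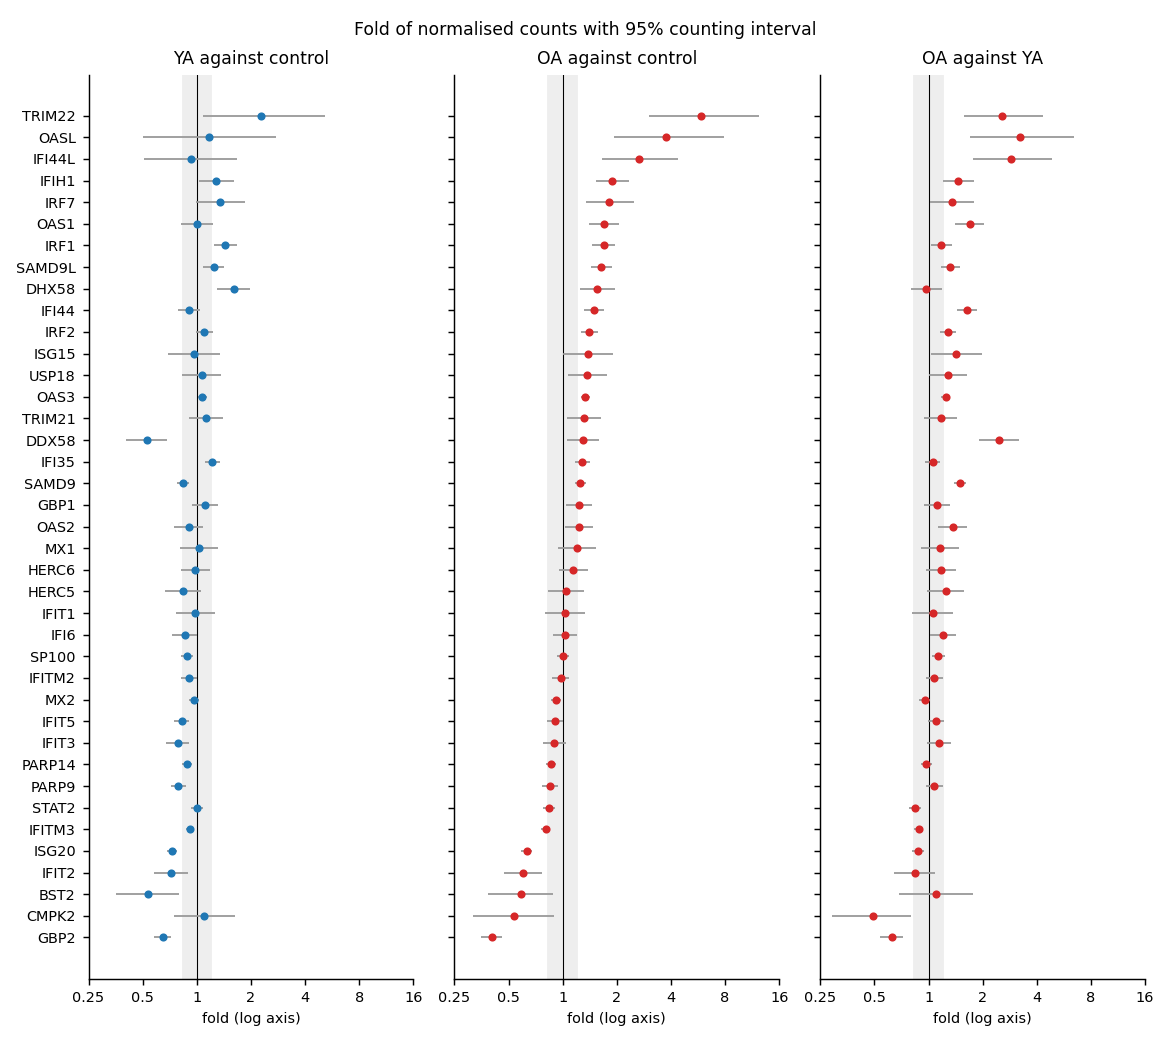
Fold of normalised counts (points, log axis) with its 95% counting interval (lines) for the 39 genes past the filter, ordered by their fold in OA against control, in the 3 comparisons. The grey band is the range within 1.2-fold. TRIM22, OASL and IFI44L stand at the top with wide intervals, GBP2 at the bottom with a narrow one, and DDX58 lies left of the band in YA and right of it in OA.

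Taking YA and OA against their shared control together, 12 genes were higher in OA and within 1.2-fold in YA (30.8%, beside 10.7% of all genes tested), among them the OAS genes, IFI44, IFI44L and SAMD9. A further 7 were higher in both (17.9%, beside 7.74%), and these were IFIH1, DHX58, IRF1, IRF7, IFI35, SAMD9L and TRIM22. The 4 genes lower in both (10.3%, beside 7.37%) were IFIT2, GBP2, BST2 and ISG20. All 7 genes higher in YA were thus higher in OA as well. Of all genes tested, 17.4% were higher in YA and 7.74% were higher in both.

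Folds of genes with and without the ISRE core overlapped. Of 19 genes past the filter with the core, 8 were higher in OA against control and 3 lower, beside 21.1% and 21.5% of all genes, with a median log2 fold change of 0.06. Of 9 with a window but no ISRE core, 5 were higher and 1 lower, beside the same shares, with a median of 0.36. Of 11 with no window, 7 were higher and 2 lower, again beside those shares, with a median of 0.45. Thus OAS3, IFIH1, IFI44L and SAMD9 were higher with the core printed above, and ISG20, BST2 and IFITM3 were lower with it. These counts describe the windows given and carry no test.

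The rest of the pathway was read from gene lists. Of 21 interferon genes none passed the filter. IFNB1 had 1 count in control and 0 in YA and OA. A count of 0 allows up to 3 counts, or 0.141 CPM in YA and 0.166 CPM in OA. IFNE, an interferon of epithelia and the ligand with the most reads, had 6, 6 and 18 counts in control, YA and OA. The 6 receptor genes all passed, with 2 higher and 0 lower in OA, beside 21.1% and 21.5% of all genes, and 0 higher and 1 lower in YA, beside 17.4% and 16.4%.

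JAK1, a receptor kinase, had 2834, 2727 and 2164 counts in control, YA and OA, 0.910-fold in OA (0.860 to 0.962). TYK2, another receptor kinase, had 2382, 3070 and 2368 counts, 1.29-fold in YA (1.22 to 1.36). SOCS3, an inhibitor of cytokine signaling, had 665, 465 and 446 counts, 0.701-fold in YA (0.622 to 0.791).

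Of 12 genes of nucleic acid sensing that passed, 3 were higher and 4 lower in OA, beside 21.1% and 21.5% of all genes, and 0 were higher and 2 lower in YA, beside 17.4% and 16.4%. IKBKE, a kinase of IRF3 and IRF7, had 293, 292 and 394 counts in control, YA and OA, 1.60-fold in OA (1.37 to 1.87). IRF3 had 799, 791 and 697 counts, 1.04-fold in OA (0.937 to 1.15). IRF5 had 57, 63 and 22 counts, 0.460-fold (0.268 to 0.764), and the adaptor MYD88 had 1015, 754 and 581 counts, 0.682-fold (0.615 to 0.756). TRAF3, an adaptor of this route, had 989, 790 and 1001 counts and was 1.5-fold in OA against YA (1.37 to 1.65). This list parted in both directions.

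A second list of 39 other interferon-stimulated genes was set beside the 46. Of its 32 genes past the filter, 8 were higher and 4 lower in OA, beside 21.1% and 21.5% of all genes, and 5 were higher and 3 lower in YA, beside 17.4% and 16.4%. Its median log2 fold change in OA against control was 0.10. In OA against YA, 7 were higher and 2 lower, beside 21.5% and 23% of all genes, with a median of -0.03. APOL1, a component of circulating HDL particles, had 73, 63 and 124 counts in control, YA and OA, 2.02-fold in OA (1.5 to 2.74). UBE2L6, the conjugating enzyme of ISG15, had 1089, 1121 and 1324 counts, 1.45-fold (1.34 to 1.57). SLFN5 had 2243, 3886 and 2927 counts and APOL6 699, 1051 and 789, both higher in YA, at 1.74-fold (1.65 to 1.83) and 1.51-fold (1.37 to 1.66). The share of this list called higher in OA, 25%, lay near that of all genes.

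Of 18 class I presentation and interferon-gamma genes past the filter, 3 were higher and 3 lower in OA (16.7% each, beside 21.1% and 21.5% of all genes), and 1 was higher and 2 lower in YA, beside 17.4% and 16.4%. CD274, which encodes PD-L1, had 78, 55 and 100 counts, 2.16-fold in OA against YA (1.54 to 3.06). CIITA, the class II regulator, had 1503, 1783 and 702 counts, 0.556-fold in OA (0.508 to 0.609). In the annotation other genes overlap 23.4% of the exon bases of CIITA, 11.5% on the same strand. B2M had 12281, 10718 and 11350 counts, 1.26-fold in OA against YA (1.22 to 1.29), and WARS had 4288, 6658 and 4217, 1.56-fold in YA (1.5 to 1.62).

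Markers of other cells were read for the same libraries. Of 10 immune markers, 7 were at or under 3 counts in every library, and CD3E, CLEC4C, IL3RA and FCGR3A were at 0 in all. Their sum was 171, 175 and 104 counts in control, YA and OA, most of it LYZ, the only one of the 10 past the filter. Summed fibroblast markers were 752, 956 and 581 counts and summed adipocyte markers 2298, 3212 and 1961, both highest in YA. The 5 adipocyte markers past the filter were all higher in YA, beside 17.4% of all genes, with a median log2 fold change of 0.73. In OA the log2 fold changes of these 5 ran from -3.27 to 2.64. Of all 9 adipocyte markers, ADIPOQ (1, 0 and 0 counts) and LEP (0 in all) were the 2 at or under 3 counts in every library. The part of these transcripts in any value above was not tested. Summed over the 10 melanoma markers, control, YA and OA held 2624, 1892 and 1895 counts. Of the 10, 4 passed the filter and 3 were at or under 3 counts in every library. MITF, S100B and TFAP2A were counted and SOX10 was at 0 in every library. Of the 4, 1 was higher and 2 lower in YA, beside 17.4% and 16.4% of all genes. In OA 0 were higher and 1 lower, beside 21.1% and 21.5%.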

How the data were processed

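Total RNA of A375 cells was measured as poly(A) libraries made with an Agilent SureSelect kit and sequenced on an Illumina NovaSeq, with 1 library per group (3 in all). The authors deposited raw counts of reads per gene, as whole numbers, for 58037 genes in 1 table. The submitters' processing notes name STAR 2.5.1b, featureCounts, R 3.6.1 and hg38, while the annotation release and the strand setting are not given in the sources used here. Counts were assigned to genes by the authors, and reads of overlapping genes may be lost or split.

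From these counts, size factors were computed by median of ratios in DESeq2 1.42.0 (R 4.3.3), and log2 fold changes were taken after adding a pseudocount of 1 to each normalised count. Folds are plain ratios with a 95% Clopper-Pearson interval. The quasi-likelihood test of edgeR could not be run, since 1 library per group leaves no residual degrees of freedom. The alternatives were scaling by TMM (edgeR 4.0.16) or by total count, keeping all genes, a minimum mean of 100, adding 5 in place of 1, a call at 2-fold, a log2 fold change of 1.2 or the counting interval beyond 1.2-fold, and the mean of a list. The members, lists and rules were chosen with earlier results of these data known. Counts were printed for genes whose interval lay wholly beyond 1.2-fold in any comparison, for the 3 with the smallest change, and for IRF9, STAT2, IRF1, ISG15, IFIT1, MX1, JAK1, IFNB1 and IRF3 whatever their values. From each other list at most 4 genes were named, and 1 gene under this rule is not reported here. All further genes with values were chosen after their values were seen.

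Positions, merged exon lengths and overlaps came from GENCODE 29 on GRCh38, which held 57433 of the 58037 identifiers. Promoter sequences came from RefSeq on GRCh38.p14. The interval code was tested on simulated data. Scripts ran in Python 3.11.15 (pandas 2.3.3, numpy 2.4.6, matplotlib 3.10.9, scipy 1.17.1).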

Additional observations from a re-analysis of the deposited data

How the results depend on the processing

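Among the 39 genes, medians kept their sign when libraries were scaled by TMM or by total count and when 5 was added in place of 1. The named genes kept their sign too, except in YA against control, where STAT2 and IKBKE, both near no difference, turned from below to above 0 under both scalings (to 0.02 on the log2 scale by TMM) and IRF3 went from -0.01 to 0.01 by TMM. TMM gave 7 higher and 7 lower in YA against control, in place of 7 and 8. The number lower in OA against YA went from 2 to 4 by TMM and to 4 by total count. The median in OA against control lay between 0.13 (all genes kept) and 0.29. With all genes kept, so that those with few reads enter, 12 of 46 were lower in OA against control and 8 in OA against YA, beside 33.8% of all genes in each. With a minimum mean of 100, 1 was lower in OA against YA, beside 17.8%. Stricter thresholds lower counts by construction. At 2-fold, YA against control had 1 higher and 0 lower, beside 2.15% and 0.971% of all genes, OA against control 3 and 1, beside 2.86% and 3.71%, and OA against YA 4 and 0, beside 3.04% and 4.43%. At a log2 fold change of 1.2 they had 0 and 0 (beside 1.21% and 0.597%), 3 and 1 (1.96% and 2.79%) and 4 and 0 (2.11% and 3.06%). At both thresholds, the genes higher in OA in either comparison included OASL and TRIM22, which passed the filter through their level in OA. By the counting interval they had 2 and 4, 12 and 3, and 8 and 2, beside the shares given in the report. No library could be left out and no paired analysis was possible because each group had 1 library. Depth limits the genes with few counts, where TRIM22, OASL and IFI44L had wide intervals.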
